A study of Mus musculus with 6 samples.

Results

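Most of the genes described here encode collagens, laminins, other proteins of the extracellular matrix, and the enzymes that crosslink or cut it. Vim, Acta2 and Tagln encode proteins inside the cell and Thy1 one of the cell surface, and they are counted among the matrix genes. Members were taken by gene name on the array: every collagen and laminin chain, the lysyl oxidases, fibulins, matrix metalloproteinases (Mmp) and their tissue inhibitors (Timp), and 11 further names that mark fibroblasts or their matrix. The rule found 96 of the 27962 gene names, read by 173 of 41174 probes. One of them, Col4a3bp, matches a collagen name but encodes a ceramide transfer protein. It changed by -0.11 (log2, adjusted p = 0.169) and was left out of all groups below. The other 95 names form 4 groups: 20 basement membrane genes, 30 fibroblast matrix genes, 20 other collagens, and 25 proteases and inhibitors.

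Cultured mouse embryonic stem (ES) cells of an F1 background from 129 and C57BL/6 were given, for 48 h, an siRNA directed at BRG1 or, as the control, a scrambled one. BRG1 is the ATPase of SWI/SNF chromatin remodelling complexes and is encoded by Smarca4. Each treatment had 3 single-colour Agilent arrays, named here control or BRG1 siRNA arrays 1, 2 and 3, and the labels name no separate cultures. The p-values therefore rest on array-to-array spread, part of which could be technical. Both groups had the same background and culture, and siRNA lowers but does not remove its target. By its brightest probe Smarca4 kept 65.8% of its control signal (log2 change -0.60 ± 0.06 SE, limma adjusted p = 0.00365). Its other probes kept 54.7% and 66.2%.

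A basement membrane is a thin sheet of matrix that lies under epithelia. Laminins, trimers of an alpha, a beta and a gamma chain, form its first network at the cell surface, and type IV collagen forms a second, crosslinked network. ES cells and the extraembryonic endoderm of the early embryo both make laminin. Fibroblasts and other mesenchymal cells lay down a different matrix, of fibrillar collagens, fibronectin, fibulins and type VI collagen, which lysyl oxidases crosslink. Mmp enzymes cut matrix proteins outside the cell, and Timp proteins bind and block them.

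Values are log2 signals after subtraction of each array's own 75th percentile, so they compare arrays for 1 gene and not genes with each other. A change is BRG1 siRNA minus control over 3 arrays per group. Its standard error (SE) is that of limma, which moderates the variance of each gene by those of all genes tested. A gene is called raised or lowered where the adjusted p is under 0.05 over all 17758 genes tested. A gene was tested if its brightest probe stood well above background throughout the 3 arrays of either group. That held for 75 of the 95 matrix genes. On all 6 arrays it held for 68. The other 7 (Lama2, Col6a1, Col9a1, Col25a1, Mmp13, Mmp16 and Mmp24) entered through the control group only, and all 7 changes were negative. The filter let them in where they were high, so their direction is no evidence. They stay in the counts and medians below, and of them only Mmp13 was called. Of the 20 untested genes, 9 had no probe above background on any array: Col4a3, Col12a1, Col10a1, Col19a1, Col24a1, Col28a1, Mmp8, Mmp12 and Mmp20.

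The arrays had 60.9% to 75.3% of their spots above background, and 0 to 2 spots were saturated per array, none of them of a matrix gene. The 3 control arrays and BRG1 siRNA array 1 were on slide 1, and BRG1 siRNA arrays 2 and 3 were on slide 2. In a fit that takes slide as a block, called the slide block from here on, the change of a gene equals its difference within slide 1. The 11 tested ES cell markers were all above background on the 6 arrays, and their summed level, in multiples of the 75th percentile, was 472 to 478 on control and 474 to 495 on BRG1 siRNA arrays. Dppa5 alone made up 228 to 248 of it on controls. Single markers did change: Nanog (0.41), Klf4 (0.34) and Utf1 (0.43) rose and Pou5f1 fell (-0.33). These are 36.4% of the 11, where 23.3% of all genes tested were called.

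Of the 75 tested matrix genes, 7 were raised and 17 lowered, together 32%, where 23.3% of all genes tested were called, 9.87% raised and 13.4% lowered. The median change was -0.11 for matrix genes and -0.04 for all genes. Arrays of the 2 groups did not overlap for 41 matrix genes, 28 lower and 13 higher with BRG1 siRNA. Over all genes that share was 44%, with 25.1% lower and 18.9% higher. Changes were mostly small. Only Mmp13, Mgp and Col6a3 were called with a change of at least 2-fold, as were 0.76% of all genes. Mmp13 had entered through the control group only. Spike-in scaling, in which control RNAs added to each sample set the scale, shifted the all-gene median to 0.16. There the split became 12 raised and 9 lowered and the matrix median 0.09, where 3358 of all 17758 genes tested were raised and 635 lowered. This scaling adds the same amount to every change. Of the 24 calls 16 were kept, and none of the 24 changes was small enough to turn sign.

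**Figure D1:**
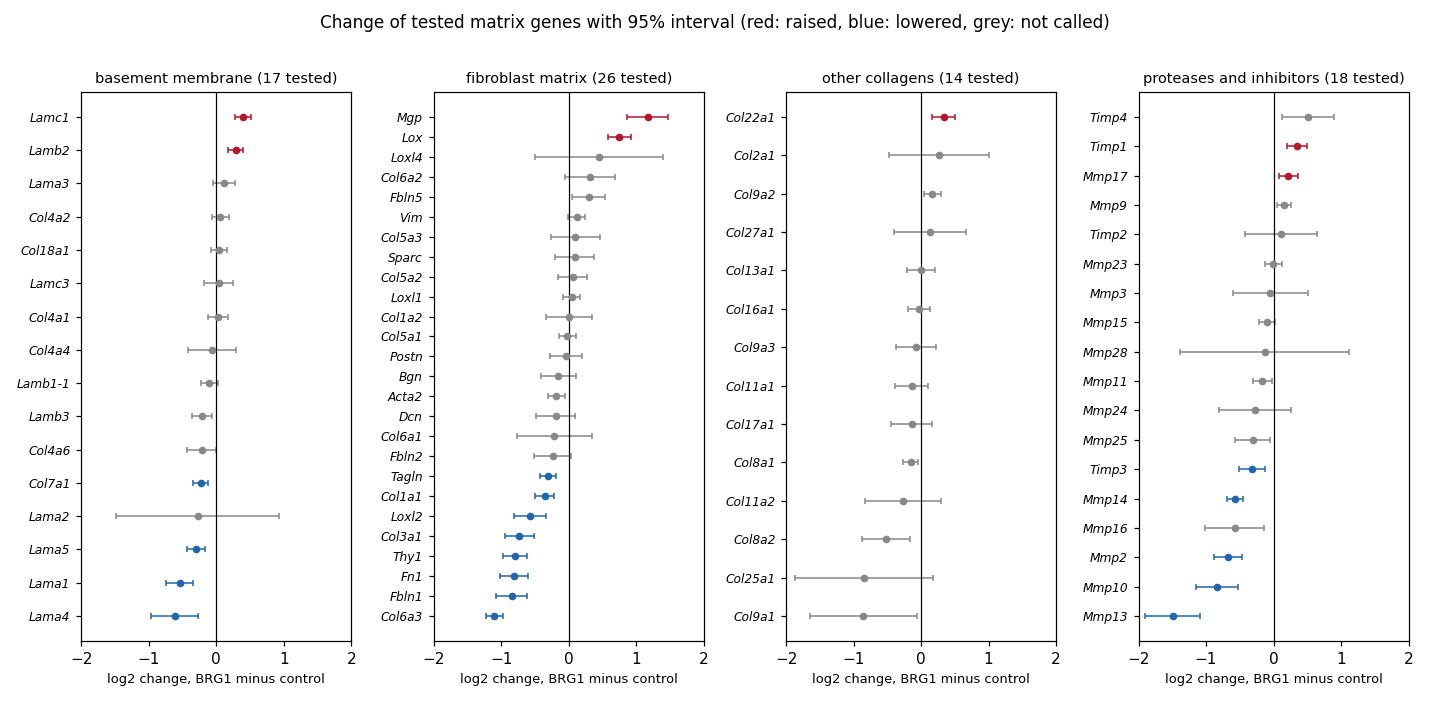
Change of the tested matrix genes by group, with 1 basement membrane gene not drawn, as log2 of BRG1 siRNA minus control, with bars for the 95% interval (3 arrays per group). Red points are raised, blue lowered and grey not called; calls of both directions stand in the basement membrane, fibroblast matrix and protease panels, and the other collagens hold 1 call. The 24 called genes keep their sign with spike-in scaling, while medians of the groups turn from below to above 0.

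Among basement membrane genes, 3 laminin alpha chains fell while a beta and a gamma chain rose, and type IV collagen was not called. Of 17 tested genes, 2 were raised (Lamc1, Lamb2) and 4 lowered (Lama4, Lama1, Lama5, Col7a1), 35.3% of the tested genes, against 23.3% of all genes. The median change was -0.10, and 0.09 with spike-in scaling. All 11 laminin genes on the array were tested, with 3 lowered and 2 raised. Untested were Col4a3, Col4a5 and Col15a1. The count depends on the scale: with spike-in scaling it was 2 raised and 0 lowered, and with median scaling 1 and 1. Of all 17758 genes tested, spike-in scaling called 3358 raised and 635 lowered, and median scaling 833 and 901.

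Lama1 encodes the alpha1 chain, which joins beta1 and gamma1 chains in a laminin of the early embryo. Its probe at chr17:66089045-66090007 (mm7, plus strand) read -0.97, -0.80 and -0.87 on control arrays 1, 2 and 3 and -1.36, -1.34 and -1.57 on BRG1 siRNA arrays 1, 2 and 3. All BRG1 siRNA arrays lay below all controls. The change of -0.54 ± 0.08 was 1.46-fold (adjusted p = 0.00898). A second, dimmer probe fell by 1.04 (adjusted p over probes = 0.0113). The call was lost with spike-in scaling (-0.34) and with the slide block (-0.48, adjusted p = 0.078).

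Lama4, an alpha chain best known from vessel walls, read -3.97, -3.94 and -3.63 on control arrays and -4.43, -4.69 and -4.27 with BRG1 siRNA, in the same order. The groups did not overlap, and the gene fell 1.53-fold (-0.61 ± 0.14, adjusted p = 0.0313). A second probe read 0.46 lower and was called, but it stood above background on 3 control arrays and 1 BRG1 siRNA array, so it entered through the group where it was high. This call was fragile: it was lost without any single array except BRG1 siRNA array 3, with the slide block (adjusted p = 0.164) and under spike-in scaling, and normexp background correction gave -0.36. Lama5, the widespread alpha5 chain of mature basement membranes, read 3.50, 3.40 and 3.55 on controls and 3.13, 3.19 and 3.22 with BRG1 siRNA. It fell 1.23-fold (-0.30 ± 0.05, adjusted p = 0.0154) with no overlap. Its call was lost without control array 1 or 3 or BRG1 siRNA array 1 or 2, with the slide block (-0.36, adjusted p = 0.0615) and under spike-in scaling (-0.11). Col7a1, the anchoring fibril collagen that ties basement membrane to the tissue beneath, fell 1.17-fold, from 2.07, 2.06 and 2.16 to 1.85, 1.86 and 1.88 (-0.23 ± 0.04, adjusted p = 0.0171). It was lost without control array 2 or 3 or BRG1 siRNA array 1 or 2, with the slide block (adjusted p = 0.0884) and under spike-in scaling (-0.03).

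Lamc1, the gamma1 chain shared by most laminins, moved the other way. Its probe at chr1:153180095-153180153 (mm7, minus strand) read 4.03, 4.11 and 4.04 on control arrays and 4.48, 4.50 and 4.39 on BRG1 siRNA arrays, so the 2 groups stood clearly apart. The rise of 0.40 ± 0.05 was 1.32-fold (adjusted p = 0.00535). It was kept without each array in turn and with spike-in scaling. Among basement membrane calls it alone was kept with the slide block (0.42, adjusted p = 0.046). Lamb2, a beta chain of muscle, nerve and kidney basement membranes, read 0.38, 0.33 and 0.37 on controls and 0.58, 0.70 and 0.67 with BRG1 siRNA. It rose 1.22-fold (0.29 ± 0.05, adjusted p = 0.0116), and the call was lost without control array 2 or 3 and with the slide block (0.22, adjusted p = 0.0812), while spike-in scaling gave 0.48.

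The beta1 chain, listed on the array as Lamb1-1, read 2.10, 2.12 and 2.18 on controls and 2.07, 1.95 and 2.06 with BRG1 siRNA. The BRG1 siRNA arrays lay lower without overlap, but the change of -0.10 ± 0.05 was not called (adjusted p = 0.197) and became 0.09 under spike-in scaling. So of the chains of the laminin made of alpha1, beta1 and gamma1, alpha1 was lowered on the main scale, gamma1 raised and beta1 not called.

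Col4a1 and Col4a2 encode the common type IV collagen chains and lie head to head on chromosome 8. Col4a1 read -1.30, -1.12 and -1.16 on controls and -1.14, -1.17 and -1.20 with BRG1 siRNA, and Col4a2 read -1.06, -1.07 and -1.04 and then -1.002, -0.91 and -1.07. In both genes the groups overlapped. The changes were 0.03 ± 0.06 (adjusted p = 0.783) and 0.06 ± 0.05 (adjusted p = 0.442), and that of Col4a1 turned sign in several settings. By limma 0 of the 4 tested type IV collagen genes were called, and 1 had an unadjusted p under 0.05. Col18a1, a basement membrane collagen that carries the endostatin fragment, was not called by its brightest probe (0.04, adjusted p = 0.579), whereas its dimmer probe rose by 0.22 (adjusted p over probes = 0.0297).

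**Figure D2:**
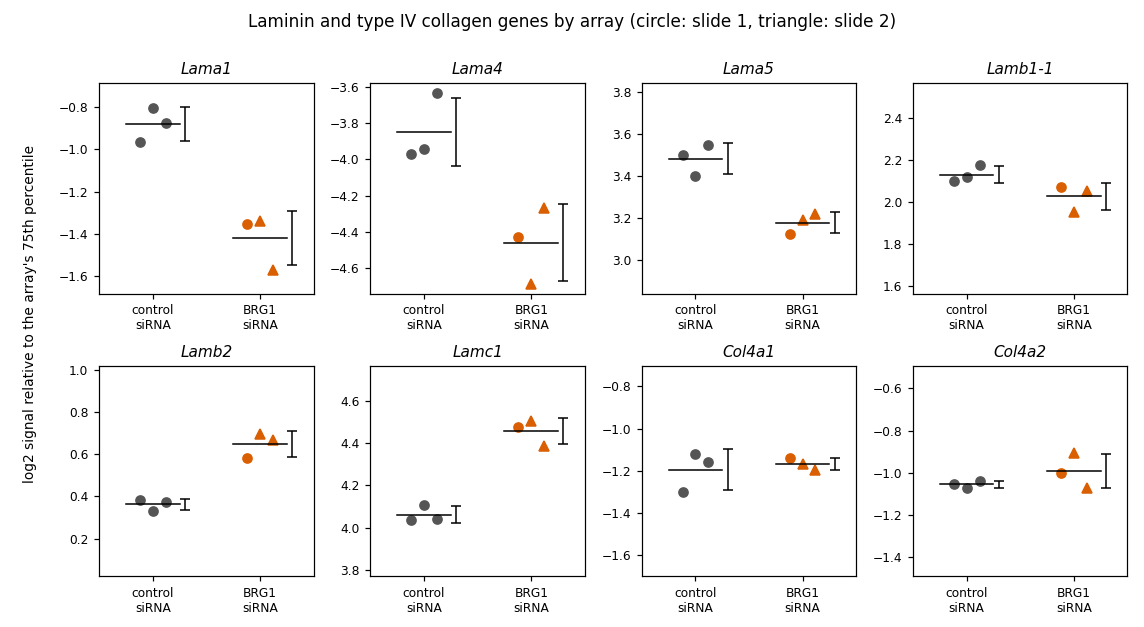
Signals of 6 laminin and 2 type IV collagen genes on each array (log2, scaled to the array's 75th percentile; each panel has its own range), with a line for the group mean and a bar for the SD of 3 arrays; circles are slide 1 and triangles slide 2. Lama1, Lama4 and Lama5 lie lower with BRG1 siRNA and Lamb2 and Lamc1 higher, while Col4a1 and Col4a2 overlap; Lamb1-1 turns sign with spike-in scaling and the other laminins shown do not.

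By the brightest probes, called falls reached 2.14-fold in the fibroblast matrix group and 1.53-fold in the basement membrane group. A dimmer Lama1 probe, also called, fell 2.05-fold, so this contrast depends on the probe. Of 26 tested fibroblast matrix genes, 8 were lowered (Col6a3, Fbln1, Fn1, Thy1, Col3a1, Loxl2, Col1a1, Tagln) and 2 raised (Mgp, Lox). In this group 38.5% were called, against 23.3% of all genes. The median was -0.10, and 0.10 with spike-in scaling, where 5 were raised and 5 lowered, beside 3358 raised and 635 lowered of all 17758 genes. Untested were Col12a1, Col14a1, Loxl3 and Lum. Of 14 fibroblast markers that are no members, 12 were tested. Among these 7 were lowered and 1, Cd248, was raised (66.7% called, against 23.3% of all genes), with a median of -0.26. Twist1, Tnc, Osr1 and Meox1 were not called. The summed level of the 14 was 9.30 to 9.97 on controls and 5.75 to 6.07 with BRG1 siRNA, but most of that difference was S100a4. The other 13 markers summed to 2.83 to 3.03 and then 2.65 to 2.88, and Fap, a defining marker of activated fibroblasts, was above background on no array. The part of such cells in the results was not tested, and in these bulk samples fewer cells of a type and less RNA per cell cannot be told apart. S100a4, a calcium-binding protein of fibroblasts and many motile cells, read 2.65 to 2.84 on controls and 1.63 to 1.70 with BRG1 siRNA and fell 2.12-fold. Thy1, Mgp and Lox had been seen to change in these arrays before the group was described, so they are no independent evidence of its direction.

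Col6a3 encodes a chain of type VI collagen, the beaded filament near cell surfaces. Its probe at chr1:90671098-90671157 (mm7, minus strand) read -2.05, -2.01 and -1.94 on control arrays and -3.11, -3.14 and -3.04 on BRG1 siRNA arrays. Both groups were tight and far apart. It fell 2.14-fold (-1.10 ± 0.05, adjusted p = 0.000803), and the call held with the slide block (-1.11) and without each array. Its other 2 probes were not above background on any array, and averaging over all 3 gave -0.38 and no call. The partner chains did not pass the test: Col6a1 changed by -0.22 (adjusted p = 0.53) and Col6a2 by 0.32 (adjusted p = 0.192).

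Fn1 encodes fibronectin, which binds integrins and seeds collagen assembly. At chr1:71832689-71834926 (mm7, minus strand) it read 2.23, 2.46 and 2.40 on controls and 1.58, 1.63 and 1.43 with BRG1 siRNA. No array crossed between the groups. The fall was 1.76-fold (-0.81 ± 0.08, adjusted p = 0.0034), and its other 2 probes fell by 0.44 and 0.51 (adjusted p over probes = 0.0401 and 0.00846). Fbln1, a fibulin that binds fibronectin and basement membrane proteins, read 1.10, 1.01 and 1.13 and then 0.11, 0.17 and 0.43 (chr15:85367889-85367948, mm7, plus strand). It fell 1.79-fold (-0.84 ± 0.09, adjusted p = 0.00396), and a second probe fell by 0.53. Thy1, a surface glycoprotein of fibroblasts, lymphocytes and neurons, read 0.74, 0.71 and 0.78 on controls and -0.13, -0.11 and 0.10 with BRG1 siRNA, a fall of 1.73-fold (-0.79 ± 0.07, adjusted p = 0.00246). Its second probe did not pass (-0.47, adjusted p over probes = 0.0651). Fn1, Fbln1 and Thy1 kept their calls with the slide block, with spike-in scaling and without each array.

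The fibrillar collagens did not move as one. Col3a1, of soft tissue fibrils, read -2.31, -2.40 and -2.11 on controls and -3.07, -3.01 and -2.94 with BRG1 siRNA (chr1:45585395-45585454, mm7, plus strand), and the groups did not overlap. It fell 1.66-fold (-0.73 ± 0.09, adjusted p = 0.00456) and kept the call with the slide block and without each array; averaging in its 2 dim probes gave -0.67 and no call. Col5a2, with a probe 28.0 kb away on the other strand, changed by 0.06 (adjusted p = 0.666). Col1a1 and Col1a2 encode both chains of type I collagen, the main protein of bone and tendon. Col1a1 read 1.87, 1.96 and 1.91 on controls and 1.63, 1.58 and 1.47 with BRG1 siRNA, and fell 1.28-fold (-0.36 ± 0.06, adjusted p = 0.0105). That call was lost without control array 2 or 3, with the slide block (-0.29, adjusted p = 0.0836), under spike-in scaling (-0.16) and when probes were averaged (-0.18), and a second tested probe showed 0.01 (adjusted p over probes = 0.946). Col1a2 read 0.94, 1.19 and 1.03 and then 1.22, 1.17 and 0.77, with full overlap (0.01 ± 0.14, adjusted p = 0.979). Its sign turned in several settings. The promoter of Col3a1 is printed here because Col3a1 was the most lowered fibrillar collagen: the 250 bases before its start, on the plus strand at chr1:45311288-45311537 (RefSeq, GRCm38.p6), hold 1 match to the TATA box core TATAAA, in capitals, whose first base is at -117. They hold none to the letters of a CCAAT box, a GC box or an AP-1 site, which are spelled out with the Mmp promoters.
Col3a1: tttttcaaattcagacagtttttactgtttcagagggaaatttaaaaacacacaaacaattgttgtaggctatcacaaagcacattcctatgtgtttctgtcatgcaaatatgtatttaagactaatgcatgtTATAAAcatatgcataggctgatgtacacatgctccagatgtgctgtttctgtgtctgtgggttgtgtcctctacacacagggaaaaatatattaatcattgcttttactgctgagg
Motifs were searched on both strands, and 12.4% of 32851 RefSeq promoters of this length hold TATAAA.

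Lysyl oxidases, copper enzymes that crosslink collagen and elastin, went opposite ways. Lox read -2.83, -2.79 and -2.96 on control arrays and -2.01, -2.12 and -2.19 on BRG1 siRNA arrays, with no overlap, a rise of 1.69-fold (0.75 ± 0.07, adjusted p = 0.00276). Loxl2 read -1.30, -1.03 and -0.98 and then -1.71, -1.71 and -1.62, a fall of 1.49-fold (-0.57 ± 0.09, adjusted p = 0.0115). The rise of Lox was kept with the slide block and without each array. The Loxl2 call was lost without control array 2 or BRG1 siRNA array 2, with the slide block (-0.60, adjusted p = 0.0732) and under spike-in scaling (-0.38), its mean over probes was -0.37, and a second probe did not pass (-0.16, adjusted p over probes = 0.401). Loxl1 (0.04, adjusted p = 0.564) and Loxl4 (0.45, adjusted p = 0.437) were not called. With the slide block Loxl4 was called raised, by 1.34 (adjusted p = 0.0187), and that call is BRG1 siRNA array 1: it read -2.86, while arrays 2 and 3 read -4.23 and -4.18, within the control range of -4.33 to -4.11.

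Mgp, matrix Gla protein, an inhibitor of tissue calcification, had the largest rise among the 75 tested genes. Its only probe, at chr6:136897160-136897219 (mm7, minus strand), read -3.46, -3.85 and -3.69 on controls and -2.65, -2.43 and -2.41 with BRG1 siRNA. The groups lay far apart, and the rise was 2.25-fold (1.17 ± 0.12, adjusted p = 0.0034), 1.01 with the slide block and 0.85 with normexp. Sparc, a collagen-binding protein also made by endoderm, read 3.79, 3.47 and 3.58 and then 3.54, 3.69 and 3.86, which overlap (0.09 ± 0.12, adjusted p = 0.626). Its second probe rose by 0.41 (adjusted p over probes = 0.00816), and the first probe showed -0.07 within slide 1 and 0.29 under spike-in scaling, where it was called (adjusted p = 0.0422). Vim, the intermediate filament vimentin of mesenchymal and ES cells, read 4.54, 4.62 and 4.68 and then 4.74, 4.76 and 4.70 (0.12 ± 0.05, adjusted p = 0.147). The contractile genes Tagln and Acta2 also serve as smooth muscle markers. Tagln read 4.56, 4.56 and 4.66 and then 4.25, 4.29 and 4.33, a fall of 1.24-fold (-0.31 ± 0.05, adjusted p = 0.0107) that lost its call with the slide block (adjusted p = 0.0564) and under spike-in scaling (-0.11). Acta2 changed by -0.19 (adjusted p = 0.0515). Of 6 smooth muscle markers outside the group, Des (-0.76) and Lmod1 (-0.70) fell and none rose (33.3% called, against 23.3% of all genes). The summed level of the 6 was 11.3 to 12.3 on controls and 10.2 to 11.1 with BRG1 siRNA. The part of such cells was not tested.

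**Figure D3:**
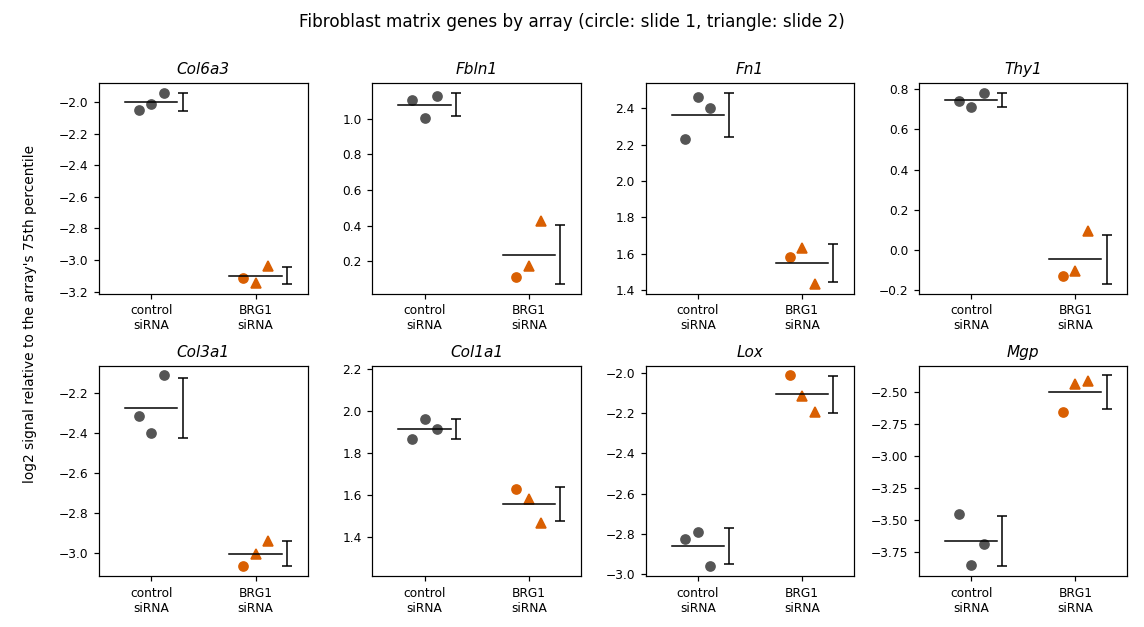
Signals of 8 fibroblast matrix genes on each array (log2, scaled to the array's 75th percentile; each panel has its own range), with group mean and SD of 3 arrays; circles are slide 1 and triangles slide 2. Col6a3, Fbln1, Fn1, Thy1, Col3a1 and Col1a1 lie lower with BRG1 siRNA and Lox and Mgp higher, with no overlap in any of the 8 and the same signs with spike-in scaling.

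Among 18 tested proteases and inhibitors, 5 were lowered (Mmp13, Mmp10, Mmp2, Mmp14, Timp3) and 2 raised (Timp1, Mmp17). In this group 38.9% were called, against 23.3% of all genes, and Mmp13 entered through the control group only. The median was -0.15, and 0.05 with spike-in scaling, which called 3358 raised and 635 lowered of all 17758 genes. Of the 21 Mmp genes 14 were tested, with 4 lowered and 1 raised; all 4 Timp genes were tested, with 1 lowered and 1 raised. The promoters of Mmp13 and Mmp10 are shown because both were called lowered in the chromosome 9 cluster, though the direction of Mmp13 is no evidence. Those of Mmp14 and Timp1 are shown because Mmp14 fell while Timp1, a blocker of several Mmp enzymes, rose. Each line gives the 250 bases before the start (RefSeq, GRCm38.p6, plus strand), 5′ to 3′, with matches on either strand in capitals. The letters searched were TATAAA, the core of a TATA box, then CCAAT for a CCAAT box, then GGGCGG for a GC box, and lastly TGANTCA, which AP-1 factors bind.
Mmp13: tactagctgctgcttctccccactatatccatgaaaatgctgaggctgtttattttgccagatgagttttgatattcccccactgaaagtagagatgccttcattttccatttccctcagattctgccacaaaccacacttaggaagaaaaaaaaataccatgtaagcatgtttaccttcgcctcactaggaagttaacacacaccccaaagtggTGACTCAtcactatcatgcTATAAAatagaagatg
Mmp10: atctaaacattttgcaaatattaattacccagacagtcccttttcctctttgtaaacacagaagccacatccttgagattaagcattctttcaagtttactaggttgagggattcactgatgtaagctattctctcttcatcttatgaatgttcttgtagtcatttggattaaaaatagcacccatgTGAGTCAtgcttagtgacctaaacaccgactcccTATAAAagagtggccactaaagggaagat
Mmp14: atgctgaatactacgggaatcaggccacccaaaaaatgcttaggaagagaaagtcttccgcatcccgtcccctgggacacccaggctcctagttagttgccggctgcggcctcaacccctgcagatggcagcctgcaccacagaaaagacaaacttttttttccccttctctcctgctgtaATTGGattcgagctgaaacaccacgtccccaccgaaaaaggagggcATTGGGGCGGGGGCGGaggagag
Timp1: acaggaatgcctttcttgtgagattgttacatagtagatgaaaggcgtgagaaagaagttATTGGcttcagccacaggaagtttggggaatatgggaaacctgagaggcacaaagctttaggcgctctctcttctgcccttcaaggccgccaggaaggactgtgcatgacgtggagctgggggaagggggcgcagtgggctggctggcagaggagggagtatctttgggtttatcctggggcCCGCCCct
These lie at chr9:7272264-7272513, chr9:7502092-7502341, chr14:54431348-54431597 and chrX:20869916-20870165. Mmp13 and Mmp10 both hold TATAAA, with its first base at -16 and -29, and TGANTCA, at -35 and -63. Mmp14 holds CCAAT on the opposite strand at -69 and -23 and GGGCGG at -19 and -13, of which the CCAAT at -23 shares a base with the GGGCGG at -19. Timp1 holds CCAAT at -190 and GGGCGG at -8, both on the opposite strand. Of all 32851 promoters, TGANTCA is in 6.75%, TATAAA in 12.4%, CCAAT in 33.8% and GGGCGG in 32.7%. Of the 95 matrix genes 66 have a promoter in the table, and TGANTCA is in 2 of the 9 lowered genes with one, in 0 of 2 raised, 2 of 41 not called and 3 of 14 untested. TATAAA is in 3, 0, 5 and 5 of them, so untested genes hold both about as often as lowered ones. Such matches are descriptions of letters, not of sites in use.

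Mmp13, a collagenase that cuts fibrillar collagens, had the lowest change of the 75 tested genes on the main scale, a rank that did not hold with normexp, where Col6a3 (-0.91), Fbln1 (-0.86), Fn1 (-0.85) and Thy1 (-0.79) were lower. Its single probe, at chr9:7280046-7280105 (mm7, plus strand), read -3.71, -4.22 and -4.00 on control arrays and -5.57, -5.62 and -5.22 with BRG1 siRNA. It was above background on 3 control arrays and on 1 BRG1 siRNA array. It thus entered through the group where it was high, so its direction is no evidence and its size is uncertain. The change was 2.82-fold by the main values (-1.50 ± 0.17, limma adjusted p = 0.00404) and -0.72 with normexp. Mmp10, a stromelysin of the same cluster, read -3.38, -3.74 and -3.50 and then -4.45, -4.51 and -4.19. It fell 1.79-fold (-0.84 ± 0.12, adjusted p = 0.00859), -0.51 with normexp, and lost the call with the slide block (adjusted p = 0.0594). The cluster has 8 Mmp genes whose probes span 415.4 kb of chromosome 9 (mm7). Of these 3 were tested, and the third, Mmp3, changed by -0.05 (adjusted p = 0.894). Within slide 1 the Mmp3 change was 0.47, raised with the slide block (adjusted p = 0.0474): BRG1 siRNA array 1 read -2.11, arrays 2 and 3 read -2.87 and -2.90, and the controls -2.52 to -2.68 lay between them.

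Mmp14, a membrane-bound protease that activates pro-Mmp2 and cuts collagen, read 2.74, 2.68 and 2.64 on controls and 2.17, 2.11 and 2.07 with BRG1 siRNA. The groups lay apart on every array. It fell 1.49-fold (-0.57 ± 0.05, adjusted p = 0.00221), kept with the slide block and without each array; with spike-in scaling the fall was -0.37, still called. A second probe fell by 0.29 (adjusted p over probes = 0.0401). Mmp2, a gelatinase, read -1.03, -0.80 and -0.90 and then -1.56, -1.50 and -1.70, a fall of 1.60-fold (-0.68 ± 0.08, adjusted p = 0.00517). It lost its call with the slide block (-0.66, adjusted p = 0.0541). Mmp17, another membrane-anchored member, read 0.34, 0.17 and 0.23 and then 0.42, 0.47 and 0.50, a rise of 1.16-fold (0.22 ± 0.06, adjusted p = 0.0455). That call was lost with normexp, with the slide block (adjusted p = 0.237), without any array except control array 1, and when each probe was tested on its own; the mean over probes gave 0.13 and no call. With spike-in scaling it was 0.42.

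Timp1 read 2.83, 2.78 and 2.81 on controls and 3.08, 3.12 and 3.26 with BRG1 siRNA. The rise was 1.27-fold (0.35 ± 0.06, adjusted p = 0.0119), and all 3 of its probes rose. The call was lost without control array 2 or 3 and with the slide block (0.28, adjusted p = 0.0922), and spike-in scaling gave 0.55. Timp3, the inhibitor held in the matrix, read 0.79, 0.98 and 0.89 and then 0.64, 0.61 and 0.45, a fall of 1.25-fold (-0.32 ± 0.08, adjusted p = 0.0357). Its call was lost without any array except control array 1, with the slide block (-0.24, adjusted p = 0.213), under spike-in scaling (-0.12) and in the fit on averaged probes. Timp2, which also takes part in the activation of Mmp2, read 0.05, 0.45 and -0.05 and then 0.46, 0.46 and -0.14. Its arrays overlapped and the change of 0.11 was not called (adjusted p = 0.744). Timp4 changed by 0.51 (adjusted p = 0.0648). Mmp9, the second gelatinase, changed by 0.15 (adjusted p = 0.0523), and its dimmer probe rose by 0.29 (adjusted p over probes = 0.0414).

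**Figure D4:**
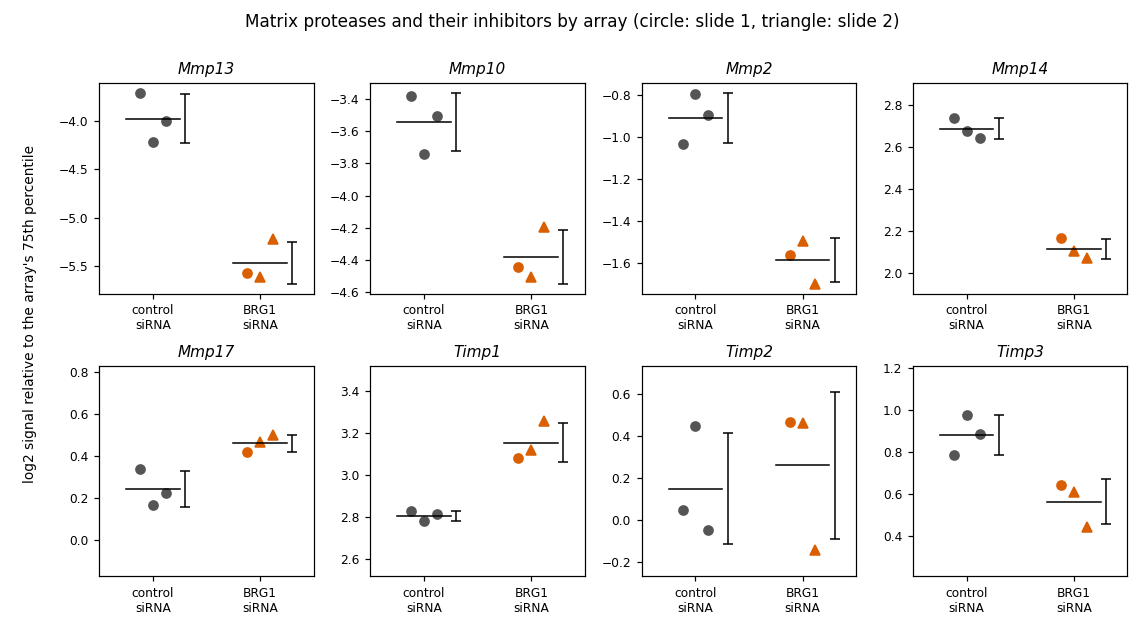
Signals of 5 Mmp and 3 Timp genes on each array (log2, scaled to the array's 75th percentile; each panel has its own range), with group mean and SD of 3 arrays; circles are slide 1 and triangles slide 2. Mmp13, Mmp10, Mmp2, Mmp14 and Timp3 lie lower with BRG1 siRNA and Mmp17 and Timp1 higher, with the same signs with spike-in scaling; the Timp2 arrays overlap.

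Of the other collagens, which include cartilage, short-chain and transmembrane forms, 14 were tested and 1 was called, 7.14%, against 23.3% of all genes. The median was -0.11, and 0.09 with spike-in scaling. Col22a1, a collagen of tissue junctions, read -1.18, -1.34 and -1.32 on controls and -0.98, -1.004 and -0.85 with BRG1 siRNA, a rise of 1.26-fold (0.33 ± 0.07, adjusted p = 0.0226). This call was lost without control array 2 or 3 or BRG1 siRNA array 1 or 2, with the slide block (adjusted p = 0.142) and when probes were averaged (0.20), and spike-in scaling gave 0.53. A second tested probe of Col22a1 showed 0.06 (limma adjusted p over probes = 0.744). None of the other collagens was lowered by limma, while 3 had a negative change with an unadjusted p under 0.05. Col9a1 (-0.86, adjusted p = 0.111) and Col25a1 (-0.84, adjusted p = 0.197) had the lowest changes, and stood above background on 1 and 2 of the BRG1 siRNA arrays. Col8a2 changed by -0.52 (adjusted p = 0.0501), and with the slide block it was lowered by -0.79 (adjusted p = 0.0473).

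Several genes had more than 1 probe. Of 107 tested probes of matrix genes, 11 were raised and 24 lowered, where 19.6% of all probes tested were called. In 27 genes at least 2 probes were tested. In 7 of them 2 or more probes were called in the same direction: Lama1, Lama4, Fbln1, Fn1, Tagln and Mmp14 fell and Timp1 rose. For 6 of these at least 2 called probes were above background on all 6 arrays; the exception was Lama4. In 7 genes exactly 1 probe was called, in 13 none, and in 0 were probes called in opposite directions.

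Slide and treatment were only partly separate, so each call was also read with the slide block. In that fit 13 matrix genes were called, 5 raised and 8 lowered, where 7.84% of all genes tested were. Of the 24 calls it kept 10: Lamc1, Col6a3, Fbln1, Fn1, Thy1, Col3a1, Lox, Mgp, Mmp13 and Mmp14. The block compares BRG1 siRNA array 1 with the same 3 controls, and the groups of all 24 genes do not overlap, so the directions were fixed beforehand and are no further support. Loxl4, Mmp3 and Col8a2 were called in addition; like every change in this fit, theirs are read from BRG1 siRNA array 1 alone. Among other settings, median scaling ended the calls of Lama1, Lama5, Col7a1, Lamb2, Col1a1, Loxl2, Tagln, Timp3 and Mmp17. Without a filter on dim probes, Lama4, Lama5, Col7a1, Lamb2, Col22a1, Timp3 and Mmp17 were no longer called, and quantile normalization and averaged probes ended that of Lama4. Slide 1 alone sets 1 BRG1 siRNA array against 3 controls, and each of the 24 changes there equals that with the slide block.

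**Figure D5:**
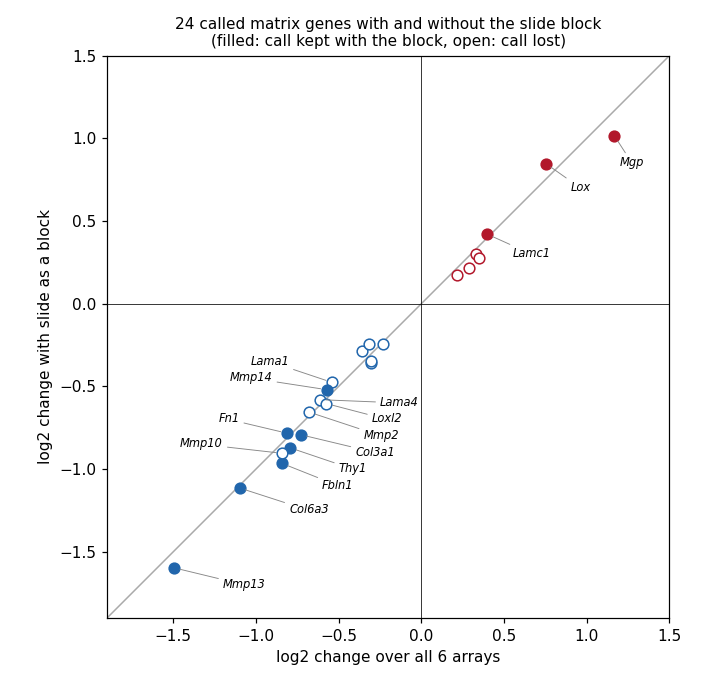
Change of the 24 called matrix genes over all 6 arrays (x axis, log2) against the change with the slide block (y axis, log2), with the line of equality; red genes are raised and blue lowered, filled points keep their call with the block and open points lose it. Equal signs are given by the choice of genes, whose groups do not overlap; the 10 filled points include Mmp13, Col6a3, Mgp, Lox and Lamc1.

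Genes that work with the matrix, from lists outside the members, were read in the same fit. Collagen processing genes, from modification and folding in the cell to the cutting of procollagen, were split. Of 17 tested, 4 were raised and 4 lowered (47.1% called, against 23.3% of all genes), with a median of 0.07. Serpinh1, the collagen chaperone HSP47, fell by 0.74 (adjusted p = 0.00167) and Fkbp10, a second collagen chaperone, by 0.45 (adjusted p = 0.00503), whereas Crtap, part of the prolyl hydroxylation complex, rose by 0.33 and the procollagen protease gene Bmp1 by 0.24. Of 24 tested matrix receptors, 10 were raised and 2 lowered (50% called), with a median of 0.18. Itga11, an integrin chain for collagen, rose by 0.82 (adjusted p = 0.00101) and Itga5, the fibronectin receptor chain, by 0.57 (adjusted p = 0.00938). Itgb3 fell by 0.42 and the syndecan gene Sdc2 by 0.29. Of 9 tested basement membrane partners, 0 were raised and 2 lowered, with a median of -0.08; their 22.2% called is near the share over all genes. Fras1, a protein of the epithelial basement membrane, was above background on no BRG1 siRNA array. It entered the test through the control group only, so its direction is no evidence. By its values it was at least 1.47-fold lower. That bound takes whichever was higher on an array, its own signal or the dimmest one that counted as above background. Frem2, a relative of Fras1, fell by 0.52 (limma adjusted p = 0.0161).

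Endoderm, the main source of basement membrane in the early embryo, was read by 16 markers. Of 12 tested, 0 were raised and 3 lowered (Dab2, Amn, Thbd), with a median of -0.03. Their 25% called is also near that share. The summed level was 3.49 to 5.78 on controls and 3.94 to 5.06 with BRG1 siRNA, of which Foxq1 alone was 2.15 to 4.14 and 2.64 to 3.65. Without it the other 15 markers summed to 1.34 to 1.64 and 1.29 to 1.41. Afp and Apoa1 were above background on no array. Of 5 tested endothelial markers 3 were lowered and 0 raised (60% called, against 23.3% of all genes). The falls were small: Pecam1 -0.24, Tek -0.21 and Flt1 -0.27. Kdr (0.11) and Erg (0.97, limma adjusted p = 0.21) were not called. The summed level of the 8 endothelial markers was 1.28 to 1.36 on controls and 1.13 to 1.24 with BRG1 siRNA. Cdh5 and Tie1 were above background on no array. The part of these cells in the laminin and collagen results was not tested.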

How the data were processed

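Total RNA of ES cells was measured on 6 single-colour Agilent arrays, 3 per siRNA. Values in the deposited scanner output are intensity on a linear scale, 1 per spot. Per the file headers the authors ran Agilent Feature Extraction 9.5.3.1 on design 014868, with probe coordinates in mm7, and the processed signal used here was background-subtracted by that software. The deposited value table equalled that signal.

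From it, log2 minus the 75th percentile of non-control spots was computed per array. Control and outlier spots were left out, spots of a probe averaged, and each gene was read by its brightest probe. Groups were compared with limma 3.58.1 (lmFit, eBayes, two-sided) in R 4.3.3, adjusted by Benjamini-Hochberg over 17758 genes. The method was tested on simulated data. No 2 arrays were copies.

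Members, gene lists and tests were chosen with earlier results of these data known. Named with every array's value are 12 fixed genes (Lama1, Lamb1-1, Lamc1, Col4a1, Col4a2, Col1a1, Col1a2, Col3a1, Fn1, Vim, Sparc, Thy1), and per group the most changed called genes, up to 6 in each direction; from each other list up to 2 per direction. Alternatives were normexp (offset 50), quantile, median and spike-in scaling, filters on dim probes, slide or replicate number as a block, slide 1 alone, averaged or single probes, a trended robust eBayes, the value table, and each array left out. Symbols came from a RefSeq table of GRCm38.p6, for 80 of 95 genes by accession and 15 by symbol; exon positions of probes were not analysed here. Promoters came from RefSeq (GRCm38.p6). Fgf4, Hspg2, Agrn and Adamts14 were not found under those names. The listed promoters do not include Lama1, Lamc1, Lama4, Mgp, Lox, Fn1, Thy1, Col1a1, Mmp2, Tagln or Loxl2. Sums of marker levels without the brightest gene were added after their values were seen. The value of 1 basement membrane gene is not reported here; it stays in the counts.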

Additional observations from a re-analysis of the deposited data

How the results depend on the processing

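The 24 matrix gene calls became 13 with the slide block and 0 with slide 1 alone, and ranged from 15 (without control array 2) to 31 (without BRG1 siRNA array 3) when each array was left out. The 6 basement membrane calls became 2 with median scaling, 2 with spike-in scaling, 2 with no filter on dim probes, 1 with the slide block and 3 with the replicate block. They ranged from 2 to 6 without each array. The 10 fibroblast matrix calls ranged from 8 to 11 without each array. The cause was not tested. Over all genes, 4139 calls became 1734 with median scaling, 1740 with no filter, 1392 with the slide block, 59 with slide 1 alone, 1945 with the replicate block and 2585 with the mean over probes, and 1641 to 4413 without each array.

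Of the 75 tested matrix genes, 31 turned sign in at least 1 setting that reads genes, none of them among the 24 calls. Mmp3 turned from -0.05 to 0.47 with the slide block and was called there. Among the genes named by the rule, Lamb1-1 was 0.09 with spike-in scaling (0.0949). Col4a1 was -0.04 with normexp and percentile scaling (-0.0391), -0.04 with normexp and quantile normalization (-0.0402), -0.02 with the mean over probes (-0.0197) and from -0.0280 to 0.0623 without each array. Col1a2 was -0.0633 and -0.0542 with normexp and percentile or quantile scaling, -0.0162 with the mean over probes, and from -0.0774 to 0.1476 without each array, below 0 without control array 1 or 3 or BRG1 siRNA array 1 or 2. Sparc was -0.0694 with the slide block and -0.0694 with slide 1 alone.

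Arrays with the same replicate number shared only a number: their deviations from the group means correlated at -0.31, 0.11 and -0.02, and not every array correlated best with its own number. With the replicate block 18 matrix genes were called, 17 of them among the 24. With 3 arrays per group the number of arrays limits the precision, and dim probes such as that of Mmp13 carry the least certain sizes.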
